A study of Homo sapiens with 8 samples.

Results

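The 49 genes described here encode proteins that copy DNA and divide the chromosomes. They were taken as a fixed list of gene symbols, of which 23 act in G1 and S phase and 26 in G2 and M phase, and all 49 were found among the 26475 genes of the count table. RNA was sequenced from MOLM-13 cells, an established cell line of human acute myeloid leukemia with the fusion KMT2A-AF9, whose genotype is labelled WT. The cells received the vehicle DMSO, the Menin inhibitor VTP50469, the KAT6A inhibitor named WM119 in the labels and WM1119 in the study, or both inhibitors (the combination). Each group had 2 libraries, which makes 8. The sources used here give no dose and no duration for these libraries, and the study's general statement on independent replicates of its drug experiments does not name RNA sequencing. The p-values may therefore measure only the spread between these libraries, which may be technical. In bulk RNA, fewer cells of a type and less RNA per cell cannot be told apart. The comparisons asked whether the genes of proliferation were lower in the treated cells in which the genes of myeloid maturation were higher.

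A cell licenses its replication origins in G1 by loading the MCM helicase with CDC6 and CDT1, copies the DNA in S phase with a fork of helicase, clamp and polymerases, and then builds a spindle under the control of CDK1, the Aurora kinases and PLK1. The spindle checkpoint delays their separation until all chromosomes are attached, and the anaphase-promoting complex then releases them. Most of these genes are transcribed periodically: E2F factors drive those of G1 and S phase, while those of G2 and M phase are held down in resting cells by the DREAM complex, which binds a CHR element, often near the CCAAT boxes that NF-Y reads. Myeloid cells as a rule leave the cell cycle when they mature, and Menin and KAT6A are chromatin regulators that leukemia cells with a KMT2A fusion need to stay immature.

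The promoters of the list show this division of the cell cycle in their letters. RefSeq windows of 250 bases before to 50 bases after a transcription start (build GRCh38.p14) were matched to 39 members by symbol. They were searched on both strands for an E2F site (TTTGGCGC, TTTCCCGC, TTTGCCGC or TTTCGCGC), a CHR (TTTGAA or TTTAAA) and a CCAAT box (CCAAT). An E2F site lay in a window of 12 of 18 G1 and S phase members and of 3 of 21 G2 and M phase members. A CHR lay in a window of 5 of the 18 and of 18 of the 21, and a CCAAT box in 13 and 19. Of all 27305 genes with a window, 3.99% held the E2F site, 27.9% the CHR and 39.7% the CCAAT box, so that the CHR share of the G1 and S phase members (27.8%) was that of all genes. Of all 35116 windows, 3.31%, 24% and 34.6% held these letters. A match of letters is a description and not a measured binding site. Printed here, from 150 bases before to 20 bases after the start, are the promoters of 2 G1 and S phase members that were lower in the combination at an unadjusted p under 0.05 (CDC6 and MCM6) and of the 2 mitotic B-type cyclins (CCNB1 and CCNB2), whose CCAAT boxes and CHR stand in the same order. Capitals mark the E2F, CHR and CCAAT matches on either strand, and in MCM6 the TTTGGCGC and GCGCGAAA matches overlap.
CDC6, chr17:40287729-40287898, plus strand: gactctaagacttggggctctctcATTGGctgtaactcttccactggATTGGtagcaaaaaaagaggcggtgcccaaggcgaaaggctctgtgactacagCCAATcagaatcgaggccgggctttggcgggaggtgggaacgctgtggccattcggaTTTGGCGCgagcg
MCM6, chr2:135876424-135876593, minus strand: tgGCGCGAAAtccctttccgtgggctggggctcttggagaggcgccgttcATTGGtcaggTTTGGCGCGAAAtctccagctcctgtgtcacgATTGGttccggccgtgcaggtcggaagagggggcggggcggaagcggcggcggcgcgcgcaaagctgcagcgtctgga
CCNB1, chr5:69167000-69167169, plus strand: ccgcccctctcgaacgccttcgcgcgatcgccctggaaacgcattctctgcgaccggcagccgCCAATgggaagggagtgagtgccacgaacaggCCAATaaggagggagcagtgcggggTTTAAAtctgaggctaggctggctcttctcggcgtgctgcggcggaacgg
CCNB2, chr15:59104996-59105165, plus strand: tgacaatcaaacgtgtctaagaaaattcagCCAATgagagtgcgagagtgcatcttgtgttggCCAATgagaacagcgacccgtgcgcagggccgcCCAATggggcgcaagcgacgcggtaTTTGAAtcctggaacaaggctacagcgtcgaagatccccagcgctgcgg

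In CDC6 the E2F match began 8 bases into the transcript, and in MCM6 overlapping matches began at positions -90 and -86 from the start and at -152 and -148, of which the stretch printed holds all but the first of the latter. In CCNB1 the CCAAT boxes began at -87 and -55 and the CHR at -30. In CCNB2 they began at -120, -87 and -54, with the CHR at -29.

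The libraries held 18092906 to 23634468 counts each, and 12401 genes with enough counts were tested, among them all 49 members. Levels are given as CPM, that is counts scaled to the library size with TMM factors, and changes as fitted log2 ratios. The 7 markers of the line, such as CD33, FLT3 and SPI1, all passed the filter, while the hemoglobin genes of erythroid cells, EPCAM, and CD3E and CD3G of T cells were at 0 in every library. Other markers of foreign cells did pass the filter: CD3D, CD2 and NKG7 (T and NK cells), CD79A (B cells), KRT8 and KRT18 (epithelium) and COL1A1 (stroma). The summed B cell, epithelial and stromal markers reached at most 3.16, 4.59 and 1.02 CPM in any library. The summed level of 5 T and NK cell markers ran from 22.1 to 25.1 CPM with DMSO but from 33.2 to 84.3 CPM with the combination, mostly NKG7, and their part in the results was not tested. Combination replicate 2 stood apart: 18.5% of all tested genes differed by more than 1 log2 unit between the libraries of the combination, against 0.637% to 1.19% in the other groups. For the members described with their CPM, the log2 change in the combination is therefore also given without it, in a fit where the lone library left was assumed to vary like the other groups.

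The members were abundant in every group. Summed over the 2 libraries of a group, the least counted member, CDC25C, had 608 to 859 counts. Per kilobase of transcript in DMSO, the highest levels were those of MCM7, a subunit of the MCM helicase (307 CPM per kb), PCNA, the sliding clamp of the polymerases (290.1 CPM per kb), MCM4 (263 CPM per kb) and TYMS, which makes thymidylate (263 CPM per kb). The lowest were those of the kinetochore motor CENPE (8.54 CPM per kb) and the phosphatase CDC25C (8.42 CPM per kb), which activates CDK1. Together the 49 genes summed to 10994 and 10906 CPM with DMSO, 11168 and 11066 CPM with VTP50469, 10620 and 11097 CPM with WM119, and 10765 and 10021 CPM with the combination. The sum was thus lowest in combination replicate 2, and the other 7 libraries lay between 10620 and 11168 CPM. These sums are scaled with the TMM factors and are not shares of the raw counts. The TMM factor was 0.872 in combination replicate 2 and 0.994 to 1.036 in the other 7 libraries.

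**Figure D1:**
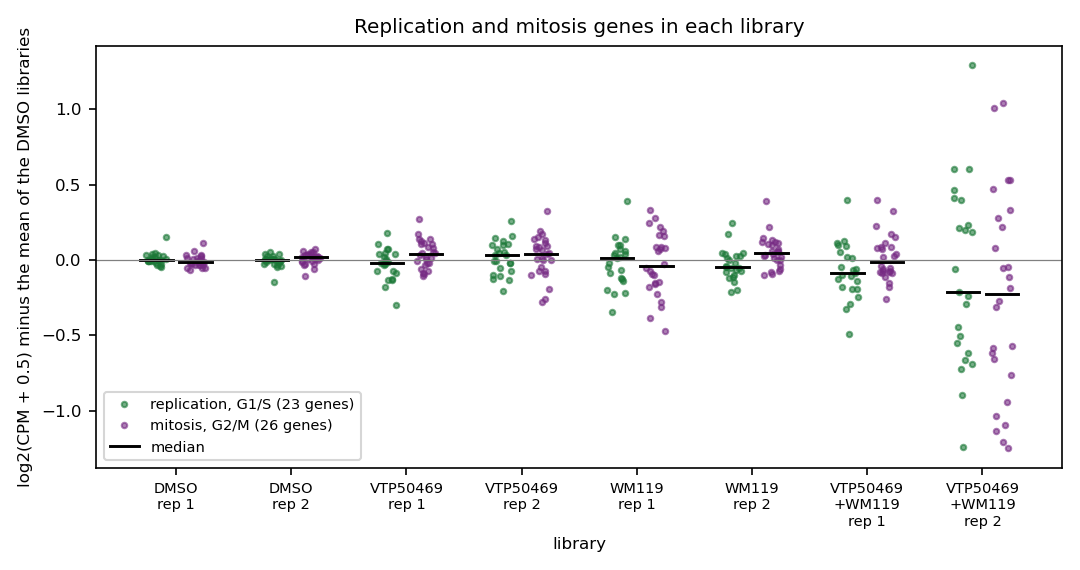
Each point is 1 of the 49 genes in 1 library, as log2(CPM + 0.5) minus the mean of the DMSO libraries (vertical axis), with the 23 G1 and S phase genes in green, the 26 G2 and M phase genes in purple and the median as a bar. The genes stayed within 0.5 log2 units of DMSO in every library except combination replicate 2, where they ran from -1.25 to 1.30.

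In the combination against DMSO, 1 of the 49 members passed edgeR's quasi-likelihood test at a Benjamini-Hochberg adjusted p under 0.05, the licensing factor CDC6, which fell, and none passed in the other direction. Of all tested genes, 3.44% were called lower and 5.85% higher. At an unadjusted p under 0.05, 3 members were lower (CDC6, MCM6 and UHRF1; 13.4% of all genes) and 3 higher (TK1, AURKB and BIRC5; 16.9% of all genes). DESeq2 called 3 lower and 2 higher, against 7.31% and 9.75% of the genes it tested. The libraries of the combination and DMSO did not overlap in 18 members that were lower and 9 that were higher, beside 30.9% and 29.0% of all genes. The fitted log2 changes ran from -0.57 for CENPF to 0.92 for TK1, with 29 members below 0 and 20 above, a median of -0.13, and a median over all tested genes of 0.01. The members' median was -0.045 without combination replicate 2 and -0.23 without replicate 1. The 95% interval lay within 1 log2 unit of no change, in both directions, for 38 of the 49 members.

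**Figure D2:**
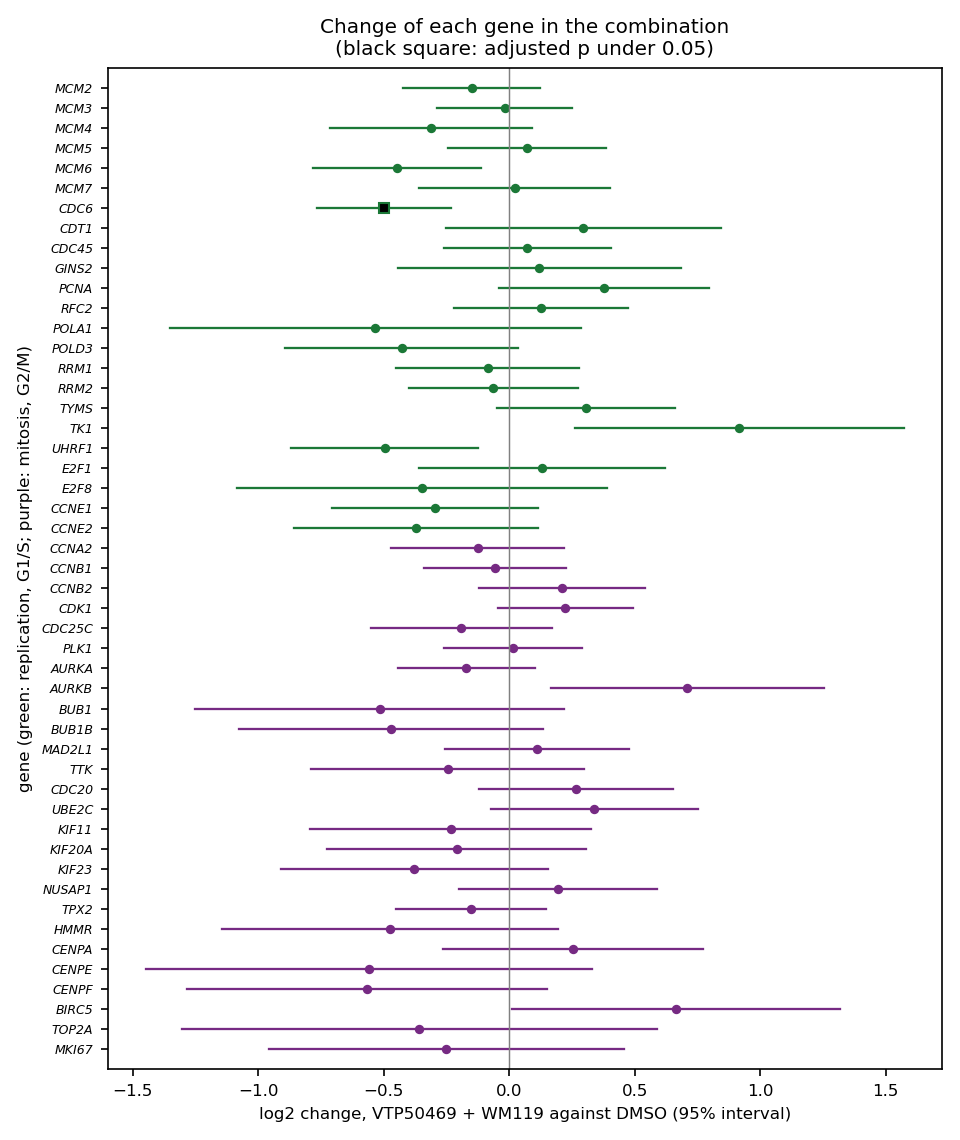
Fitted log2 change of each of the 49 genes in the combination against DMSO (horizontal axis) with its 95% interval, G1 and S phase genes in green and G2 and M phase genes in purple, 2 libraries per group. The black square marks CDC6, the only gene past an adjusted p of 0.05, and the points run from -0.57 (CENPF) to 0.92 (TK1).

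The licensing genes, which load the MCM helicase at origins before S phase, held the 1 call. CDC6, the loader that recruits the helicase to the origin, had 129 and 133 CPM in DMSO, 124 and 122 CPM with VTP50469, 114 and 114 CPM with WM119, and 93.2 and 92.1 CPM with the combination. No 2 groups overlapped, and the combination libraries were the lowest and nearly equal. The log2 change in the combination was -0.50 (SE 0.11, edgeR adjusted p 0.0411, DESeq2 adjusted p 0.00120), a level of 0.707 times that of DMSO. The call held without combination replicate 2 (log2 -0.48, edgeR adjusted p 0.0167). Leaving out any single library of the other 3 groups ended the call (edgeR adjusted p 0.104 to 0.278 with a log2 change of -0.53 to -0.48). With an offset for transcript length and GC content the log2 change was -0.23 (edgeR adjusted p 0.229). The transcript of CDC6, of 4564 nt, is longer than the members' median of 2966 nt.

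MCM6, a subunit of the helicase, had 366 and 369 CPM in DMSO, 348.6 and 349.0 CPM with VTP50469, 334 and 350.4 CPM with WM119, and 299 and 239 CPM with the combination. Both combination libraries lay under all others, and the log2 change of -0.45 (SE 0.14) missed the edgeR threshold (adjusted p 0.0944) and passed that of DESeq2 (adjusted p 0.0434). Without combination replicate 2 it was -0.28 (edgeR adjusted p 0.0866). The other MCM subunits had log2 changes of -0.31 (MCM4), -0.15 (MCM2), -0.02 (MCM3), 0.02 (MCM7) and 0.07 (MCM5), and none of these 5 passed. CDT1, the partner of CDC6 in loading the helicase, had a log2 change of 0.30 with the combination libraries at 128 and 209.7 CPM on either side of the DMSO values of 137 and 139 CPM, and one of -0.09 without replicate 2.

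**Figure D3:**
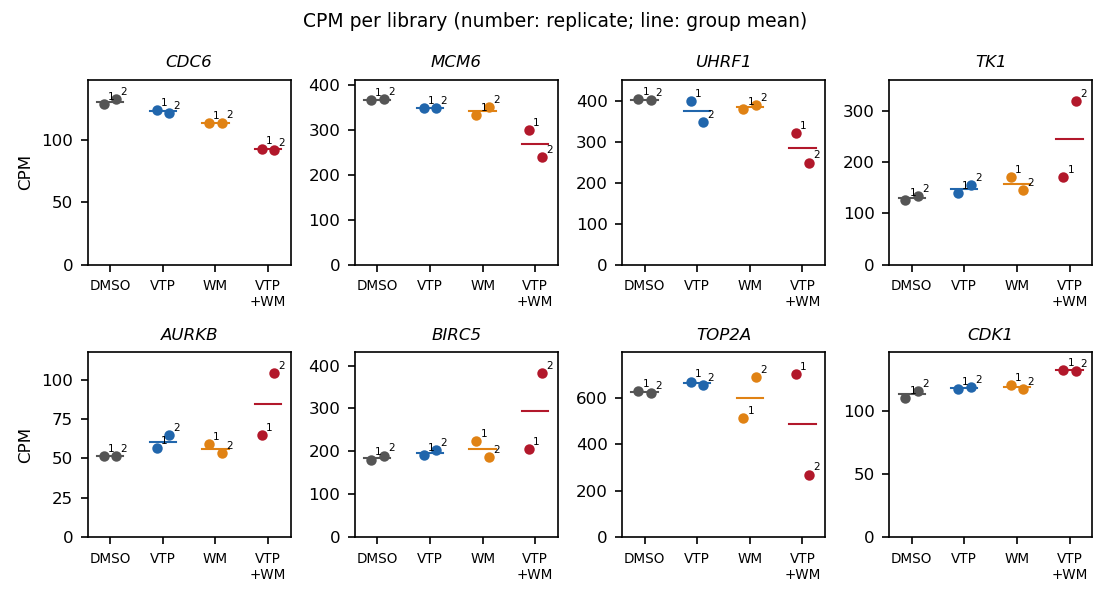
CPM of 8 members in each of the 8 libraries (vertical axis, starting at 0), grouped by treatment on the horizontal axis, with the replicate number beside each point and the group mean as a line. CDC6 and CDK1 have nearly equal combination libraries, while TK1, AURKB, BIRC5 and TOP2A have combination libraries far apart.

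Of the 6 genes of the fork none passed the test by edgeR, none had an unadjusted p under 0.05 and none passed by DESeq2. PCNA had 369 and 372 CPM in DMSO, against 399 and 563 CPM with the combination. Both combination libraries were above both DMSO libraries, and the log2 change was 0.38 (SE 0.18, edgeR adjusted p 0.193), or 0.12 without combination replicate 2. POLD3, an accessory subunit of DNA polymerase delta, went the other way, with 64.6 and 61.7 CPM in DMSO, 55.7 and 38.1 CPM with the combination, and a log2 change of -0.43 (SE 0.20, edgeR adjusted p 0.186), or -0.17 without replicate 2. POLA1, the catalytic subunit of the polymerase that primes the new strands, had 108 and 101 CPM in DMSO but 100.03 and 43.8 CPM in the combination, so its log2 change of -0.53 rested on replicate 2, without which it was -0.05. CDC45 and GINS2, which complete the active helicase, and RFC2, which helps to load PCNA, had log2 changes of 0.07 to 0.13.

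The enzymes that make DNA precursors included the largest difference of the list. TK1, which salvages thymidine, had 126 and 133 CPM in DMSO, 139 and 155 CPM with VTP50469, 170.1 and 146 CPM with WM119, and 171 and 318 CPM with the combination. Every treated library lay above both DMSO libraries, and combination replicate 1 was close to the higher WM119 library. The log2 change in the combination was 0.92 (SE 0.28, 1.89-fold), with an edgeR adjusted p of 0.0858 and a DESeq2 adjusted p of 0.0202. Without combination replicate 2 the log2 change was 0.41, and without replicate 1 it was 1.29, each resting on 1 combination library. It was also 0.41 without both combination replicate 2 and WM119 replicate 1. With the offset for length and GC content it was 0.35 and passed (edgeR adjusted p 0.0194), beside 22.2% of all tested genes called. TYMS had 429 and 419 CPM in DMSO, 463 and 586 CPM with the combination and a log2 change of 0.31 (SE 0.15, edgeR adjusted p 0.210), or 0.14 without replicate 2. RRM1 and RRM2, the subunits of ribonucleotide reductase, had log2 changes of -0.09 and -0.06.

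Among the regulators of S phase entry, UHRF1, which carries DNA methylation over to the new strand, had 404 and 403 CPM in DMSO, 400.3 and 349.6 CPM with VTP50469, 379.8 and 390.1 CPM with WM119, and 322 and 249.6 CPM with the combination. Both combination libraries were the lowest, and the log2 change was -0.50 (SE 0.16, edgeR adjusted p 0.0947, DESeq2 adjusted p 0.0445), or -0.31 without combination replicate 2 (edgeR adjusted p 0.104). CCNE2, a cyclin that drives cells into S phase with CDK2, had 71.4 and 71.1 CPM in DMSO, 65.3 and 44.8 CPM with the combination and a log2 change of -0.37 (SE 0.20, edgeR adjusted p 0.250), or -0.11 without replicate 2. Its relative CCNE1 had a log2 change of -0.30, the activator E2F1 of 0.13 and the repressor E2F8 of -0.35.

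The cyclins and CDK1, which bring the cell into mitosis, were among the members with the least spread. CDK1, the main mitotic kinase, had 110.1 and 116 CPM in DMSO, 117 and 119 CPM with VTP50469, 120.0 and 117 CPM with WM119, and 132 and 132 CPM with the combination. The combination libraries were the highest, by a log2 change of 0.22 with a 95% interval of -0.04 to 0.49 (SE 0.11, edgeR adjusted p 0.219), and by 0.24 without replicate 2. CCNB2, whose promoter with 3 CCAAT boxes is printed above, had 93.1 and 91.7 CPM in DMSO, 97.9 and 116 CPM with the combination and a log2 change of 0.21 (SE 0.14, edgeR adjusted p 0.317), or 0.10 without replicate 2. CCNB1 had a log2 change of -0.06, CCNA2, the cyclin of S and G2 phase, of -0.13 and CDC25C of -0.19, and the intervals of all 5 lay within 1 log2 unit of no change.

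The mitotic kinases differed among themselves. AURKB, the kinase of the chromosomal passenger complex that corrects faulty attachments, had 51.8 and 51.6 CPM in DMSO, 56.4 and 64.9 CPM with VTP50469, 59.1 and 53.2 CPM with WM119, and 64.8 and 104 CPM with the combination. All treated libraries were above DMSO, but combination replicate 1 was level with the higher VTP50469 library, and the log2 change in the combination was 0.71 (SE 0.23, edgeR adjusted p 0.0998, DESeq2 adjusted p 0.0454), or 0.34 without replicate 2 (edgeR adjusted p 0.118). BIRC5, or survivin, a partner of AURKB in that complex, had 181 and 190.1 CPM in DMSO, 191 and 203 CPM with VTP50469, 224 and 186 CPM with WM119, and 206 and 382 CPM with the combination. Its log2 change of 0.66 (SE 0.28, edgeR adjusted p 0.161, DESeq2 adjusted p 0.111) was 0.16 without combination replicate 2. AURKA, the kinase of the spindle poles, had 109.8 and 115 CPM in DMSO, 101 and 98.6 CPM with the combination and a log2 change of -0.17 (SE 0.12, edgeR adjusted p 0.326), or -0.14 without replicate 2. PLK1, a kinase that acts from mitotic entry to division, had a log2 change of 0.01 with a 95% interval of -0.26 to 0.29.

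The spindle checkpoint kinases BUB1 and BUB1B split the combination libraries. BUB1 had 159.8 and 173 CPM in DMSO, against 157 and 75.2 CPM with the combination (log2 -0.52, SE 0.31, edgeR adjusted p 0.282). BUB1B had 132 and 138 CPM in DMSO, against 124 and 69.9 CPM with the combination (log2 -0.47, SE 0.26, edgeR adjusted p 0.243). In both genes combination replicate 1 was near DMSO and replicate 2 was the lowest of all 8 libraries. Without it the log2 changes were -0.07 for BUB1 and -0.10 for BUB1B. The checkpoint kinase TTK and the checkpoint protein MAD2L1 had log2 changes of -0.25 and 0.11.

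The genes around the anaphase-promoting complex had values on the other side of 0. CDC20, which directs the complex to its substrates, had 191 and 195 CPM in DMSO, 196 and 267 CPM with the combination and a log2 change of 0.27 (SE 0.16, edgeR adjusted p 0.292). UBE2C, its ubiquitin-conjugating enzyme and the member with the shortest transcript (777 nt), had 56.2 and 57.6 CPM in DMSO, 61.6 and 82.5 CPM with the combination and a log2 change of 0.34 (SE 0.17, edgeR adjusted p 0.224). Without replicate 2 the log2 changes were 0.04 for CDC20 and 0.13 for UBE2C. With the offset for length and GC content the sign turned in CDC20 (log2 -0.16), UBE2C (-0.16) and CCNB2 (-0.03), none of which passed in either fit. Without combination replicate 1, which leaves replicate 2 alone, the log2 changes were 0.46 for CDC20, 0.52 for UBE2C and 0.32 for CCNB2.

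Of the 6 spindle genes and 6 chromosome genes none passed by edgeR or DESeq2, and BIRC5 alone had an unadjusted p under 0.05. KIF23, a motor of the midbody, had 72.6 and 80.1 CPM in DMSO, 72.5 and 44.7 CPM with the combination and a log2 change of -0.38 (SE 0.22, edgeR adjusted p 0.277). HMMR, which helps to organise the spindle, had 149.7 and 150.5 CPM in DMSO, 143 and 73.1 CPM with the combination and a log2 change of -0.48 (SE 0.28, edgeR adjusted p 0.277). Without replicate 2 both KIF23 and HMMR were at -0.06. The spindle genes KIF11, KIF20A, NUSAP1 and TPX2 had log2 changes between -0.23 and 0.19. NUSAP1, which bundles microtubules, was the highest of the list without combination replicate 2 and then passed (log2 0.41, edgeR adjusted p 0.0300), but it was at -0.06 without replicate 1.

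CENPF, a protein of the outer kinetochore and the lowest of the list, had 300.4 and 289 CPM in DMSO, 301 and 258 CPM with VTP50469, 225 and 309 CPM with WM119, and 259.7 and 138 CPM with the combination. Its log2 change was -0.57 (SE 0.30, edgeR adjusted p 0.237), or -0.17 without combination replicate 2. With the offset for length and GC content the log2 change of CENPF, whose transcript has 10290 nt, was -0.08. TOP2A, which untangles the copied chromosomes, had the widest gap of all members within a group: 704 and 269.9 CPM in the combination, above and below the 629 and 620.3 CPM of DMSO. Its log2 change was 0.19 without replicate 2 and -1.22 without replicate 1. MKI67, the proliferation marker Ki-67, had 544 and 467 CPM in DMSO, against 510.2 and 339 CPM with the combination. Its log2 change was -0.25, or 0.03 without replicate 2, and 0.29 with the offset (transcript of 12716 nt). The centromere protein CENPA had a log2 change of 0.25.

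The gaps between the libraries of a group, shared over all 4 groups in 1 fit, thus set the precision of every comparison. The median gap of the 49 members was 0.05 log2 units in DMSO, 0.06 with VTP50469, 0.12 with WM119 and 0.45 with the combination. In the combination 22 members were more than 0.5 log2 units apart and 4 more than 1, up to 1.38 in TOP2A, while 2 members were over 0.5 apart with WM119 and none with DMSO or VTP50469. In combination replicate 1 all 49 lay between -0.49 and 0.40 of the DMSO mean. In replicate 2 they lay between -1.25 and 1.30, with 19 below -0.5 and 7 above 0.5. In the fit without replicate 2, 1 member was called lower (CDC6) and 1 higher (NUSAP1) by edgeR, beside 14.5% of all tested genes called, and the members ran from -0.48 to 0.41. In the fit without replicate 1, 23 were called lower and 11 higher, beside 60.8% of all tested genes called.

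The difference from DMSO in combination replicate 2 went with transcript length. Of the 24 members longer than the median, 22 were below 0, with a median of -0.62, and of the 25 others 8 were below 0, with a median of 0.23. The rank correlation of the difference with length over the 49 genes was -0.77 in that library, -0.35 in combination replicate 1, -0.81 in WM119 replicate 1 and 0.08 in WM119 replicate 2. Over the 11416 tested genes with a length it was -0.55, -0.14, -0.51 and 0.09. For VTP50469 replicate 2 the values over members and all genes were -0.62 and -0.29, and for VTP50469 replicate 1 they were -0.07 and 0.0008. With GC content the members' rank correlation was 0.59 in combination replicate 2, 0.55 in WM119 replicate 1 and 0.30 in VTP50469 replicate 2. It was -0.07 in combination replicate 1, -0.10 in WM119 replicate 2 and 0.16 in VTP50469 replicate 1. The genes share a library and are not independent, so these values are descriptions. The part of length in the results of single members was tested only through the offset, with which 2 members were called lower (MCM6 and UHRF1) and 1 higher (TK1), beside 22.2% of all tested genes called.

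**Figure D4:**
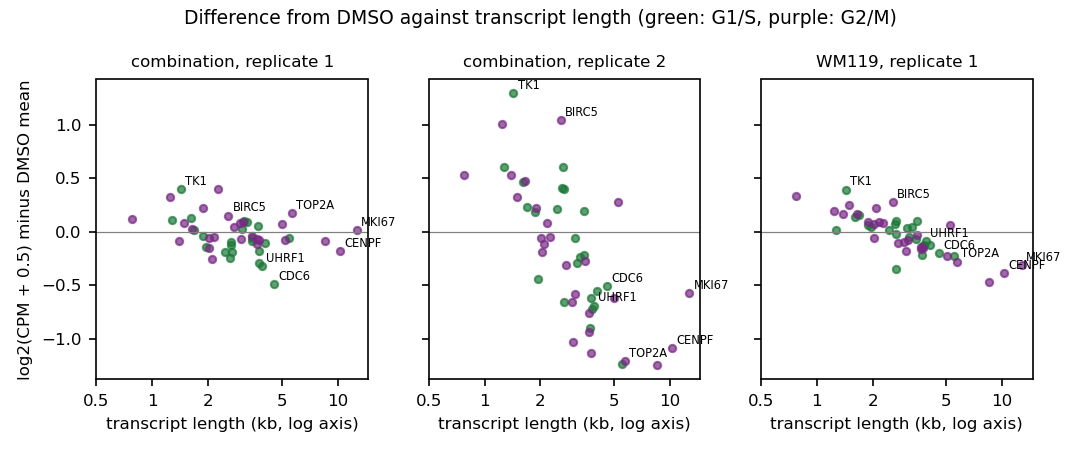
Difference of each of the 49 genes from the DMSO mean, as log2(CPM + 0.5), against its transcript length in kb (log axis) in combination replicate 1, combination replicate 2 and WM119 replicate 1. The points fall with length in combination replicate 2 (rank correlation -0.77) and WM119 replicate 1 (-0.81) and less in combination replicate 1 (-0.35).

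With VTP50469 alone, no member differed from DMSO by more than 0.23 log2 units in the fit. None of the 49 was called lower or higher by edgeR or DESeq2, and none had an unadjusted edgeR p under 0.05. Of all genes, edgeR called 0.0161% lower and 0.153% higher, DESeq2 0.566% and 1.02%, and 2.92% and 3.83% had an unadjusted p under 0.05. The share depended on the fit. When only the VTP50469 and DMSO libraries were fitted, edgeR called 617 lower and 715 higher of 11959 genes (11.1%). Of the members it then called 0 lower and 0 higher. The log2 changes ran from -0.22 for CCNE2 (71.4 and 71.1 CPM in DMSO, 57.7 and 64.8 CPM with VTP50469) to 0.23 for AURKB, with a median of 0.02. The groups did not overlap in 10 members that were lower and 16 that were higher, beside 27.6% and 27.3% of all genes. The 95% interval lay within 1 log2 unit of no change for 47 members and within 0.5 for 24. These intervals rest on a spread shared by all 4 groups, the combination included, and not on the VTP50469 and DMSO libraries alone. TOP2A, with 671 and 654 CPM in the VTP50469 libraries, had an SE of 0.399 here and of 0.399 in the combination.

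With WM119 alone, again none of the 49 was called by edgeR or DESeq2 in either direction, and none had an unadjusted edgeR p under 0.05. Of all genes, edgeR called 0% lower and 0% higher, DESeq2 0.238% and 0.413%, and 1.78% and 3.15% had an unadjusted p under 0.05. When only the WM119 and DMSO libraries were fitted, edgeR called 0.384% of all genes, and 0 members lower and 0 higher. The log2 changes ran from -0.21 for CCNE2 (56.0 and 67.3 CPM) to 0.29 for TK1, with a median of -0.02 and CDC6 at -0.20 (95% interval -0.47 to 0.06). The groups did not overlap in 9 members that were lower and 10 that were higher, beside 20.9% and 24.1% of all genes. The interval, which again rests on the spread shared by all 4 groups, lay within 1 log2 unit of no change for 48 members.

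Against either inhibitor alone, the combination gave no member past edgeR's threshold. Against VTP50469, 4 members had an unadjusted p under 0.05, CDC6 (log2 -0.41), UHRF1 (-0.39) and MCM6 (-0.37) being lower and TK1 (0.73) higher, and DESeq2 called CDC6 (adjusted p 0.0339). Of all genes, 0.395% passed by edgeR, 17.9% without adjustment and 5.07% by DESeq2. Against WM119, 4 members had an unadjusted p under 0.05, UHRF1 (log2 -0.43), MCM6 (-0.35) and CDC6 (-0.30) being lower and AURKB (0.59) higher, and DESeq2 called none. Of all genes, 1.43%, 16.7% and 5.32% passed. These comparisons share the combination libraries with each other and with that against DMSO.

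Whether the inhibitors together did more or less than the sum of their log2 changes was asked by the interaction. For the members it ran from -0.49 (BUB1B) to 0.45 (TK1), with a median of -0.12 (-0.021 without combination replicate 2), and none passed by edgeR (smallest unadjusted p 0.187, none under 0.05) or DESeq2. Of all genes 0% passed by edgeR, 2.20% without adjustment and 0.0305% by DESeq2. The interval of the interaction lay within 1 log2 unit for 35 members and within 0.5 for 4, so a departure of 0.5 log2 units was not excluded for most of them with 2 libraries per group.

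The maturation genes of monocytes and granulocytes gave other counts in the same libraries. Of 32 listed, 26 were tested, and in the combination 20 rose and 1 fell by edgeR, with a median log2 change of 2.92. Of all tested genes, 5.85% were called higher and 3.44% lower. Of the 32, 6 had no counts in DMSO and 2 none in the combination. Some may thus have passed the count filter only through the treated libraries, which would raise the count of rising genes and the median. LYZ, the lysozyme of phagocytes, had 541 and 598 CPM in DMSO, 1783 and 2226 CPM with VTP50469, 1559 and 1502 CPM with WM119, and 6374 and 8431 CPM with the combination (log2 3.70, edgeR adjusted p 0.00119). PECAM1, an adhesion molecule of leukocytes, and CSF1R, the receptor of the monocyte growth factor, rose by 2.84 and 2.64 on the log2 scale (edgeR adjusted p 0.00105 and 0.00156). With VTP50469 alone 3 of the 26 rose (median log2 change 1.22), beside 0.153% of all genes called higher. With WM119 alone none passed by edgeR, while 11 had an unadjusted p under 0.05 and DESeq2 called 4 higher (median 0.81). Of all genes with WM119, 1.78% were lower and 3.15% higher without adjustment, and DESeq2 called 0.413% higher. The medians of the replication and mitosis genes beside these were -0.13, 0.02 and -0.02. Both combination libraries had the maturation genes at a like median difference from DMSO (2.51 and 2.63 log2 units), while the medians of the 49 members were -0.06 and -0.22.

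**Figure D5:**
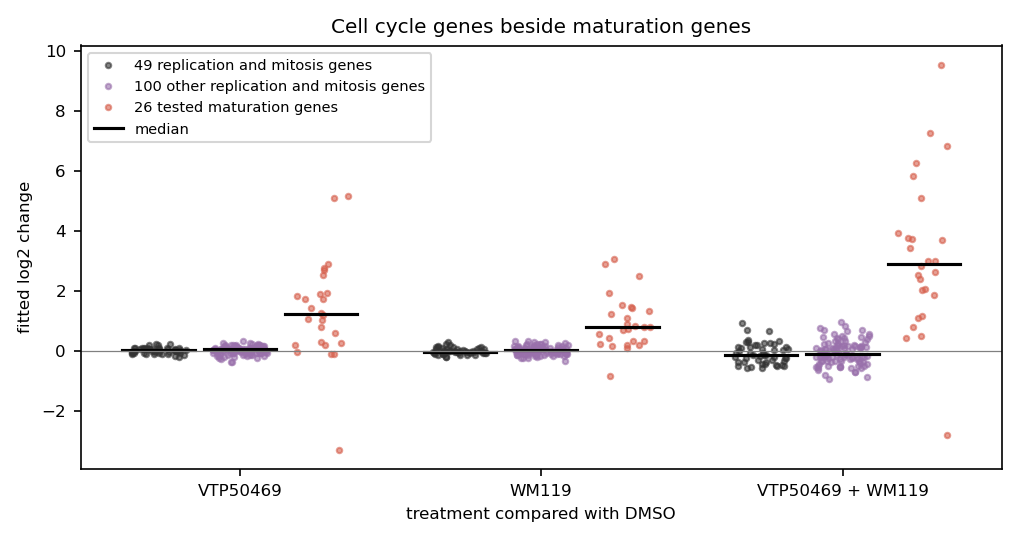
Fitted log2 change against DMSO (vertical axis) of the 49 members, 100 other replication and mitosis genes and 26 tested maturation genes for each treatment (horizontal axis), each point 1 gene and the bar the median. The maturation genes have medians of 1.22, 0.81 and 2.92 with VTP50469, WM119 and the combination, and the 49 members 0.02, -0.02 and -0.13. Some maturation genes may have passed the count filter only through the treated libraries, which would raise their medians.

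Other genes of the same processes were counted from lists set by their role. The counts stand beside those of all tested genes in the combination. There edgeR called 3.44% lower and 5.85% higher, 13.4% and 16.9% had an unadjusted p under 0.05, and DESeq2 called 7.31% and 9.75% of the genes it tested. Of 41 other replication genes none passed by edgeR in the combination, 6 were lower and 3 higher at an unadjusted p under 0.05, and DESeq2 called 2 lower and 1 higher. Their median log2 change was -0.16, and the 4 with the lowest p were LIG1, which joins the fragments of the lagging strand (log2 0.40), POLE2 (-0.72), MCM10 (-0.81) and GINS3 (-0.41). Of 59 other mitosis genes none passed by edgeR, 4 were lower and 10 higher without adjustment, and DESeq2 called 1 lower and 3 higher. Their median was 0.04, and the 4 with the lowest p were CDC25B, an activator of CDK1 (log2 0.47), SPC25 of the outer kinetochore (0.75), KNSTRN (-0.42) and TROAP (0.45). With either inhibitor alone none of these 100 genes passed by edgeR or DESeq2 and none had an unadjusted p under 0.05.

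Of 19 genes of the E2F, RB and DREAM regulators, 2 fell in the combination, beside 3.44% of all tested genes called lower. E2F5, an E2F that pairs with the pocket proteins in resting cells, had 14.2 and 14.4 CPM in DMSO, 9.86 and 9.79 CPM with VTP50469, 6.30 and 8.44 CPM with WM119, and 3.18 and 2.11 CPM with the combination. No 2 groups overlapped, and it fell by 2.42 on the log2 scale (SE 0.26, edgeR adjusted p 0.00426, DESeq2 adjusted p 1.01e-12). TFDP2, a dimerization partner of the E2F factors, had 14.8 and 12.7 CPM in DMSO, against 6.997 and 3.59 CPM with the combination and fell by 1.36 (SE 0.31, edgeR adjusted p 0.0421). Without combination replicate 1 or 2 both calls held, and without DMSO replicate 1 or 2 both were lost, that on TFDP2 also without any library of VTP50469 or WM119. The members with an E2F site in their promoter window (15) had a median log2 change of 0.12 in the combination, and the 24 without one -0.16. Those with a CHR (23) had one of -0.09, and the 16 without it 0.001. Combination replicate 2 is part of these medians, and a link between the sites and the changes was not tested.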

How the data were processed

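Reads of 150 bp, paired-end, were mapped by the authors to hg38 with STAR 2.5.1b. The deposited table holds expected counts per gene symbol, which the authors did not normalize. The counting tool, strand setting and annotation were not found in the sources, and the paper and the labels name different media, RNA kits and library kits. Counts were rounded. Without a stated strand setting, reads of overlapping genes cannot be assigned with certainty.

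One fit of all 4 groups was made in R 4.3.3 with edgeR 4.0.16 (filterByExpr, TMM factors, quasi-likelihood F test), with Benjamini-Hochberg adjustment over 12401 genes and a call at an adjusted p under 0.05. Dispersion was 0.0457 in common, on 4 residual degrees of freedom and 2.88 of prior. Intervals are 95% intervals of that fit. DESeq2 1.42.0 was an alternative, on 16403 genes with at least 1 count. The scripts were tested on simulated data. Transcript lengths and GC content came from GENCODE 44 (lengths for 92.1% of tested genes) and served an offset with a loess span of 0.4. Library plots use log2(CPM + 0.5).

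The 49 members, the lists and the rules were chosen with earlier results of these data known. Named are the 2 members per role class with the lowest unadjusted p in the combination, every called member, the largest log2 change in each direction in each comparison with DMSO, and of other lists the 4 with the lowest p, of which 1 is not reported here. The other members are given by counts, ranges or a log2 change. Fuller values of TOP2A, NUSAP1, POLA1, CDT1 and MKI67, and CDKN1A, BTG1 and CDKN1B, fall outside this rule and were chosen after their values were seen. Beside DESeq2 and the offset, the alternatives were scaling by RLE or by library size, filtering at 10 counts per library or not at all, a term for the replicate number, robust estimation, fitting each pair of groups alone, a threshold of 0.1, and leaving out libraries.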

Additional observations from a re-analysis of the deposited data

Results flagged for a closer look

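MCM2, a subunit of the replicative helicase, had 427 and 426 CPM in DMSO and 449.7 and 448 CPM with VTP50469, but 407 and 410.4 CPM with WM119 and 402 and 367 CPM with both inhibitors. Both libraries with VTP50469 were thus higher than their controls without WM119 and lower with it. The interaction was -0.16 on the log2 scale and did not pass edgeR's quasi-likelihood test (unadjusted p 0.353, adjusted p 0.938).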

How the results depend on the processing

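Of the 49 members, 1 was called lower and 0 higher in the combination against DMSO by edgeR. The counts lower and higher were 3 and 2 with DESeq2 (17.1% of all genes called) and 2 and 1 with the offset for transcript length and GC content (22.2%). At an adjusted p under 0.1 they were 3 and 2, but the share of all genes is not given here, so these counts cannot be set against it. They were 3 and 3 without WM119 replicate 1 and the combination's replicate 2 together (28.1%). They were 0 and 0 without a count filter, with only the groups compared, and with a replicate block (7.2%, 0% and 4.26% of all genes called, CDC6 adjusted p 0.0679, 0.299 and 0.1003). In the fits that leave out 1 library they ran from 0 to 23 lower and from 0 to 11 higher, both highest without combination replicate 1 (60.8% of all genes called), and only that library's loss raised the calls in the other comparisons: 0 to 35 against VTP50469, 0 to 31 against WM119 and 0 to 21 for the interaction, beside 56.6%, 54.2% and 30.9% of all genes called there. Against VTP50469, DESeq2 called 1 member, beside 5.07% of all genes called.

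The members' median log2 change over those fits ran from -0.23 to -0.045 in the combination against DMSO (-0.13 with all libraries), from -0.0075 to 0.034 with VTP50469 (0.02), from -0.036 to 0.013 with WM119 (-0.02, and 0.0095 without both libraries), from -0.28 to -0.026 in the combination against VTP50469 (-0.12) and from -0.24 to -0.014 against WM119 (-0.09). With library size only, the median of all genes in the combination moved from 0.01 to -0.10 and that of the members from -0.13 to -0.22. CDC6, the gene called with all libraries, was lower under all 18 alternatives. Called under at least 1 alternative and of the other sign under another were CCNA2, CCNB2, CDC20, CDT1, CENPA, E2F1, E2F8, KIF11, KIF20A, NUSAP1, RRM1, RRM2, TOP2A, TTK and UBE2C.

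Whether the replicate numbers tie libraries of different groups together is not known. Deviations of same-numbered libraries correlated from -0.59 to 0.29 over the 6 pairs of groups. The lowest value was that of WM119 and the combination, each of which had a library that differed with transcript length, as VTP50469 replicate 2 did less strongly. The correlations therefore cannot show that no batch was shared. No pairing was used in the main fit, and the replicate block was an alternative. With 2 libraries per group, a median SE of 0.17 log2 units in the combination limits what can be detected.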

Other observations

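The brakes on the cell cycle gave a call in each direction. Of 14 listed inhibitors and antiproliferative genes 13 were tested in the combination, and 1 fell and 1 rose, beside 3.44% and 5.85% of all tested genes. CDKN1A, the CDK inhibitor p21, had 88.1 and 76.2 CPM in DMSO, 38.9 and 39.8 CPM with VTP50469, 48.2 and 45.4 CPM with WM119, and 27.5 and 33.2 CPM with the combination. No groups overlapped, and every treated library had less than DMSO. It fell by 1.44 in the combination on the log2 scale (SE 0.15, edgeR adjusted p 0.00443). With VTP50469 alone (log2 -1.06, edgeR adjusted p 0.0738) and WM119 alone (-0.81, edgeR adjusted p 0.345) it missed edgeR's threshold. DESeq2 called it with VTP50469 alone and with WM119 alone (DESeq2 adjusted p 0.00334 with WM119). Of all genes, DESeq2 called 0.566% and 0.238% lower there. Over 18 alternatives its log2 change in the combination ran from -1.76 to -1.32 and it passed in 16.

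BTG1, an antiproliferative gene of lymphoid and myeloid cells, had 52.7 and 50.7 CPM in DMSO, 81.0 and 87.8 CPM with VTP50469, 49.2 and 46.4 CPM with WM119, and 84.2 and 86.0 CPM with the combination. The libraries with VTP50469 were all above those without it. BTG1 rose by 0.72 in the combination against DMSO (SE 0.12, edgeR adjusted p 0.0191) and by 0.83 against WM119 (edgeR adjusted p 0.0327). With VTP50469 alone its log2 change was 0.71 (edgeR adjusted p 0.121), which DESeq2 called, beside 1.02% of all genes called higher. The call in the combination against DMSO passed in 10 of 18 alternatives (highest edgeR adjusted p 0.214). CDKN1B, the CDK inhibitor p27, had 58.1 and 57.2 CPM in DMSO, against 41.0 and 39.3 CPM with the combination, a log2 change of -0.52 (edgeR adjusted p 0.0542). DESeq2 called it there, beside 7.31% of all genes called lower.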
